A study of Mus musculus with 8 samples.

Results

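The chemokine CXCL12 with its receptors CXCR4 and ACKR3, and the neuregulins with their receptor ERBB4, were measured as RNA in the telencephalon of mice carrying mutations of the homeobox genes Dlx1 and Dlx2. The genes are Cxcr4, Ackr3 and Erbb4 on chromosome 1, Cxcl12 on 6, Nrg1 on 8, Nrg3 on 14 and Nrg2 on 18. Every probe set whose platform annotation names one of these 7 genes alone was taken, which gave 12 of the 45037 probe sets that are not controls. A probe set is a group of short oligonucleotides that together report on a transcript. The labels place the 8 arrays in 4 groups of 2: basal ganglia (BG) marked +/-, BG marked -/-, cortex (Ctx) marked +/- and Ctx marked -/-, each with replicates numbered 2 and 3. The study's title speaks of Dlx1/2 mutants, and the controls here are the +/- arrays, so every group carried a mutant allele by its label. The sources used here give no age, strain, allele design or pooling of animals. Whether both arrays of a group come from separate animals is unknown, so the p-values reflect array-to-array spread that could be technical alone.

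CXCL12 is a secreted chemokine made in the developing brain by the meninges and by progenitors of the cortical subventricular zone. CXCR4, its signalling receptor, couples to inhibitory G proteins. ACKR3, formerly CXCR7, binds the same ligand, takes it up and signals through arrestins rather than G proteins. Cortical interneurons born in the ganglionic eminences carry both receptors while they migrate tangentially into the cortex. ERBB4 is a receptor tyrosine kinase of the same migrating interneurons, and NRG1, NRG2 and NRG3 are growth factors with an EGF-like domain that bind it.

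The promoters of both chemokine receptor genes are shown because Cxcr4 and Ackr3 are the members with the largest genotype differences in BG below. Each window holds the 250 bases before the RefSeq transcription start in GRCm38.p6, written 5′ to 3′ along the gene. Cxcr4 lies on the minus strand at chr1:128592300-128592549 and Ackr3 on the plus strand at chr1:90203730-90203979, both intervals being upstream of the first exon. Capitals mark TATAAA, the TATA box core, and the GC box GGGCGG, on either strand (TTTATA or CCGCCC where the match is on the other), and a pair of TATAAA matches on opposite strands before Cxcr4 overlap.
Cxcr4: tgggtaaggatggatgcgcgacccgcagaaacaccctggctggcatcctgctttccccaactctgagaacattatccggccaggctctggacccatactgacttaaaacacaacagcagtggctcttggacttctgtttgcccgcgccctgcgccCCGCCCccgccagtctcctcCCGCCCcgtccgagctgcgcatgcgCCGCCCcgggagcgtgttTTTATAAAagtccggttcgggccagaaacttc
Ackr3: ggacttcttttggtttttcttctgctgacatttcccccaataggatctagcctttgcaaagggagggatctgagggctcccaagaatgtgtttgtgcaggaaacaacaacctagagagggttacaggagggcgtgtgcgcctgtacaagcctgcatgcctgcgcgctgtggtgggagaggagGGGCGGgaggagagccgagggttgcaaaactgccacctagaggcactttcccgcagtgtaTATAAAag
TATAAA was found at 2 overlapping positions before Cxcr4, the one on the gene's own strand starting at -30, and at 1 position before Ackr3, starting at -8. It occurs in 12.4% of 32851 promoter windows of this length. The GC box was found 3 times before Cxcr4, starting at -95, -75 and -50, and 1 time before Ackr3, starting at -68. It occurs in 32.7% of all windows. TAATTA, a homeodomain core of the kind that DLX proteins bind, was searched too, and these letters are in neither window. They occur in 4.84% of windows. Of the other members, the windows of Cxcl12, Erbb4 and Nrg3 were searched and held neither TAATTA nor a TATA box core. The GC box was found 5 times before Cxcl12 and not before Erbb4 or Nrg3. No window was available for Nrg1, and Nrg2 was left out of the search.

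Signals are on a linear scale after the deposited scaling, and comparisons are on log2(signal + 16). The filter on low values kept 8 of the 12 member probe sets, among the 31526 kept in all. The probe set of Erbb4, 1 of 3 for Cxcl12 and 2 of 3 for Nrg2 fell below it. The targeted genes were low in each array labelled -/-, with Dlx1 at 1.74 to 15.5 against 137 to 1237 in the +/- arrays, and Dlx2 at 6.69 to 12 against 55.3 to 358. Whether their probes lie in the deleted sequence is not known here. The source given for every sample reads blood and adrenal medulla, whereas the descriptions give basal ganglia or cortex. Of 6 listed adrenal medulla markers 5 were tested, with summed signals of 615 to 896 per array. Th, Dbh and Pnmt, enzymes of catecholamine synthesis, read 2.90 to 97.2, and the granule proteins Chga and Chgb, which neurons also make, read 162 to 454. Of 3 red blood cell markers tested, 2 were higher in BG than in Ctx in both genotypes, with sums of 6189 and 5866 for BG +/-, 3202 and 3078 for BG -/-, 2222 and 2013 for Ctx +/-, and 1416 and 1627 for Ctx -/-. Of the brain markers, 7 of 9 striatal projection neuron markers were higher in BG +/- than in Ctx +/-. Of 5 cortical glutamatergic markers 4 were lower in BG +/- and 1 was higher. All +/- arrays differed from all -/- arrays in sex-linked RNA. Xist was at 34.2 to 67.5 in +/- and 2340 to 2519 in -/-, so sex and genotype cannot be told apart. This also holds for the members, none of which lies on a sex chromosome.

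**Figure D1:**
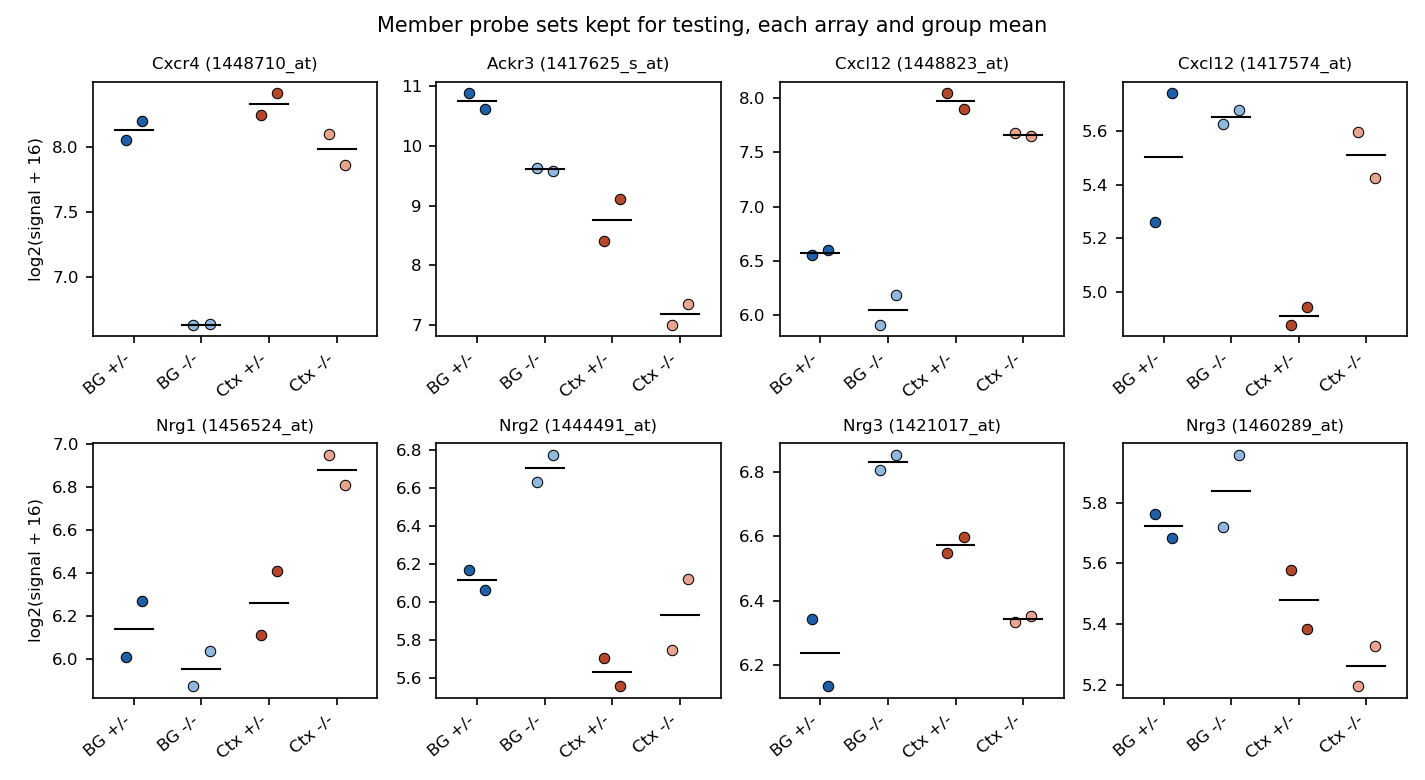
The 8 member probe sets kept for testing, 1 panel each, with log2(signal + 16) on the vertical axis (scaled per panel) and the 4 groups on the horizontal axis. Points are single arrays and lines are means of 2 arrays. Cxcr4 stands low in the 2 BG -/- arrays, and Ackr3 steps down from BG +/- to BG -/-, Ctx +/- and Ctx -/- without overlap.

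In the basal ganglia the chemokine receptors were the members with the largest differences between genotypes, whereas in Ctx this held for Ackr3 alone. Both fell in BG -/-, and their patterns over the 4 groups differed from each other. Of the 8 member probe sets tested in BG, 2 fell and 1 rose past an adjusted p of 0.05 (limma with Benjamini-Hochberg over all 31526 probe sets). Over all probe sets 9.74% passed in this comparison, 2.23% lower and 7.5% higher. The median log2 difference was -0.033 over the 8 member probe sets and 0.010 over all.

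Cxcr4 signals (probe set 1448710_at) were 250 and 278 for BG +/-, 83.5 and 83.7 for BG -/-, 287 and 324 for Ctx +/-, and 258 and 217 for Ctx -/-. Both BG -/- arrays thus stood apart below the other 6, while BG +/- and Ctx -/- overlapped. The BG mean fell from 264 ± 19.9 (SD, n = 2) to 83.6 ± 0.141 (n = 2), a ratio of 3.15. On the log2 scale the change was -1.49 ± 0.14 (SE), with an adjusted p of 0.00485. In Ctx the difference was -0.34 ± 0.14 and did not pass (adjusted p = 0.497), although the arrays did not overlap. The BG change minus the Ctx change was -1.14 ± 0.20, with an adjusted p of 0.064, which did not pass. This difference passed in 1 of 15 alternatives, an offset of 64 in place of 16 (adjusted p = 0.0241). The BG call was narrowly lost without BG -/- replicate 2 (adjusted p = 0.0504) and without BG -/- replicate 3 (adjusted p = 0.0535), with the change at -1.49 in both. The adjusted p ranged from 0.0003 to 0.0535 over the 16 alternatives.

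Ackr3 signals were 1871 and 1554 for BG +/-, 777 and 749 for BG -/-, 323 and 534 for Ctx +/-, and 112 and 147 for Ctx -/-. No neighbouring groups in this order overlapped. The BG mean fell from 1713 ± 225 (SD, n = 2) to 763 ± 19.4 (n = 2), a ratio of 2.24. The change was -1.14 ± 0.25 on the log2 scale (SE), with an adjusted p of 0.0372. In Ctx the mean was 429 ± 150 in +/- and 130 ± 25 in -/-, a ratio of 3.3. The Ctx difference of -1.58 ± 0.25 was the largest of any member in that region and did not pass (adjusted p = 0.109). It passed in 1 of 16 alternatives, an offset of 64 in place of 16 (adjusted p = 0.0129). The effects of the regions differed by 0.43 ± 0.35 (95% interval -0.41 to 1.27, adjusted p = 0.561).

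The BG call of Ackr3 depended on single arrays and settings. It was lost without any 1 of the 4 BG arrays (adjusted p = 0.0938 to 0.157) or either Ctx -/- array (0.0625 and 0.0626), with an offset of 1 (0.0646), without the filter (0.0629) and with the replicate number as a block (0.0548). The change lay between -1.28 and -1.01 in all 16 alternatives. The single probe set of Ackr3, 1417625_s_at, has a suffix that the platform uses where probes match more than one transcript.

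**Figure D2:**
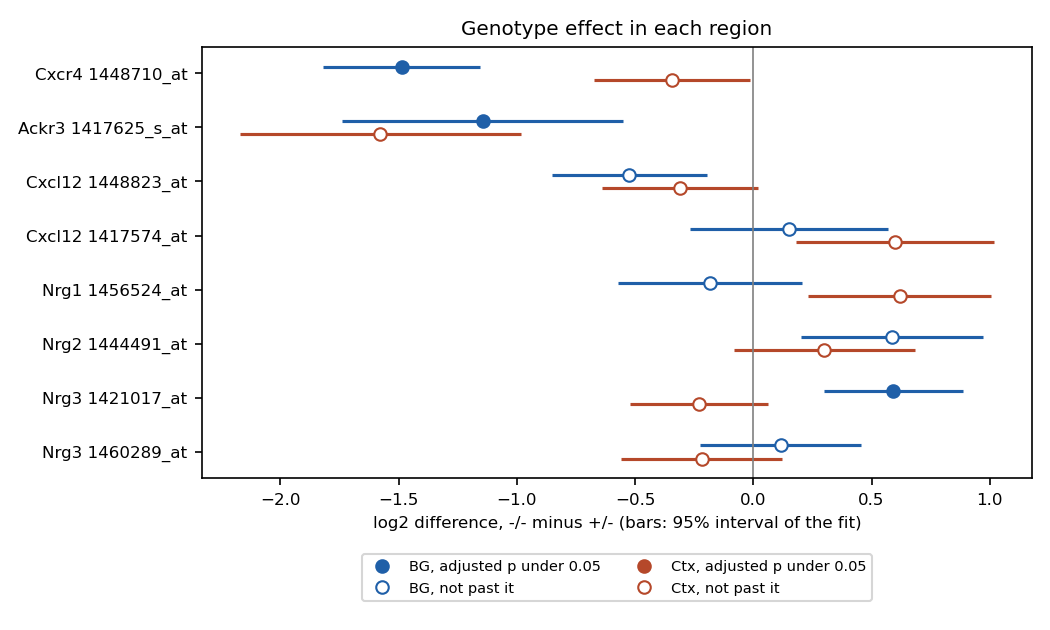
Genotype effect of each tested member probe set as the log2 difference -/- minus +/- (horizontal axis), in BG (blue) and Ctx (red), with bars for the 95% interval of the fit. Filled points passed an adjusted p of 0.05. The 3 filled points are Cxcr4 at -1.49, Ackr3 at -1.14 and Nrg3 at 0.59, all in BG.

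In bulk tissue, fewer cells of a type and less RNA per cell cannot be told apart, and several cell type marker lists differed beside these receptors. In BG, 6 of 9 striatal projection neuron markers fell and none rose, and the summed signal of the list was 3471 and 3424 in +/- against 1572 and 1270 in -/-. Of 3 red blood cell markers 1 fell in BG, Hbb-y, an embryonic globin, beside the sums given above. Of 4 intermediate progenitor markers 2 fell in BG, with sums of 574 and 552 in +/- and of 420 in both -/- arrays. Of 5 cortical glutamatergic markers 2 fell in BG, with sums of 3786 and 3857 against 2966 and 3035. Of 9 markers of interneurons from the medial ganglionic eminence, 2 rose and 2 fell in BG, with sums of 7508 and 6777 against 7622 and 7426. In Ctx, 7 of these 9 fell, with sums of 2136 and 1917 against 661 and 574. Lhx6, a transcription factor of these interneurons, read 164 and 204 in Ctx +/- but only 7.19 and 8.95 in Ctx -/-. Beside that fall, Cxcr4 in Ctx -/- read 258 and 217, against 287 and 324 in Ctx +/-. Ackr3 read 112 and 147 in Ctx -/-, against 323 and 534 in Ctx +/-. Of 10 endothelial and mural cell markers, 1 rose in BG and none passed in Ctx, with sums of 1084 and 1032 for BG +/-, 1217 and 1149 for BG -/-, 903 and 927 for Ctx +/-, and 864 and 820 for Ctx -/-. Of 5 choroid plexus markers 2 fell in Ctx, where their sums went from 12059 and 13954 to 85.0 and 29.4. Of 6 markers of Cajal-Retzius cells, early cortical neurons that also carry Cxcr4, 1 rose in BG and none passed in Ctx, with sums of 1467 and 1401 for BG +/-, 1979 and 2077 for BG -/-, 2346 and 2977 for Ctx +/-, and 3264 and 3316 for Ctx -/-. Of 6 microglial markers none passed between genotypes in either region (limma). The part of these cell types in the receptor values was not tested.

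Cxcl12, the ligand, was higher in cortex than in basal ganglia on its brightest probe set. That probe set, 1448823_at, read 78.1 and 80.9 for BG +/-, 44.2 and 57.1 for BG -/-, 248 and 223 for Ctx +/-, and 189 and 184 for Ctx -/-. The groups did not overlap, and both Ctx groups stood above both BG groups. BG was lower than Ctx by -1.39 ± 0.14 (SE, log2) in +/- (adjusted p = 0.00142) and by -1.61 ± 0.14 in -/- (adjusted p = 0.000984). Between genotypes the values were lower in -/-, at -0.52 ± 0.14 in BG (adjusted p = 0.0612) and -0.31 ± 0.14 in Ctx (adjusted p = 0.544), and neither passed. The BG difference passed in 1 of 16 alternatives, quantile normalization, at -0.70 (adjusted p = 0.0308).

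The other probe sets of Cxcl12 did not follow it. Probe set 1417574_at read 22.4 and 37.5 for BG +/-, 33.4 and 35.2 for BG -/-, 13.4 and 14.8 for Ctx +/-, and 32.3 and 27.0 for Ctx -/-. Here Ctx +/- was the lowest group, so the order of the regions in +/- was opposite to that of the brighter probe set, at 0.59 ± 0.18 (adjusted p = 0.0523). The third, 1439084_at, lay below the filter, at 1.5 to 5.68 in 7 arrays and at 26.9 in BG -/- replicate 2. With the mean of all 3 probe sets in place of the brightest, the region difference was -0.33 in +/- and -0.30 in -/-, and neither passed (adjusted p = 0.100 and 0.136). Genes of the meninges, a source of CXCL12, were dim: 5 of 8 listed were tested and none passed between genotypes. Their sums were 213 and 206 for BG +/-, 161 and 146 for BG -/-, 159 and 167 for Ctx +/-, and 117 and 88.0 for Ctx -/-. Of these 5 genes, 2 were higher and 1 was lower in BG than in Ctx in both genotypes. Of 4 markers of cortical intermediate progenitors, another source, all 4 were lower in BG than in Ctx in both genotypes, and 2 of the 4 fell in BG -/- (list median -0.35) while none passed in Ctx. The part of either cell type in the Cxcl12 values was not tested.

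Erbb4, the neuregulin receptor, was read by 1 probe set near the bottom of the signal range, at the 14.8th percentile of mean log2. Its signals were 13.2 and 26.6 for BG +/-, 11.2 and 8.39 for BG -/-, 3.21 and 1.19 for Ctx +/-, and 0.554 and 5.56 for Ctx -/-. BG arrays stood above Ctx arrays in both genotypes, and BG +/- above BG -/-, while the Ctx groups overlapped. It lay below the filter and so was not tested with the other members. In a fit without the filter, BG exceeded Ctx by 0.96 ± 0.23 (SE, log2) in +/- (adjusted p = 0.0388) and by 0.45 ± 0.23 in -/- (adjusted p = 0.258). Between genotypes the same fit gave -0.45 ± 0.23 in BG and 0.06 ± 0.23 in Ctx, with adjusted p of 0.317 and 0.975. All but 1 of these signals were below 16, so the offset shrinks the differences and the order of the dim arrays is uncertain.

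**Figure D3:**
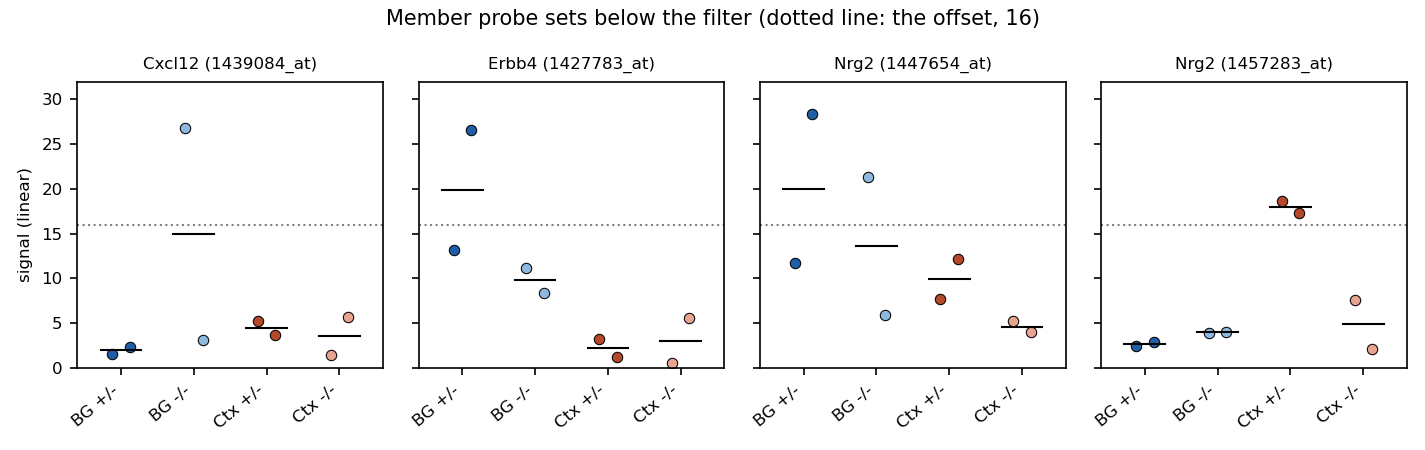
The 4 member probe sets below the filter, with linear signal on the vertical axis and the 4 groups on the horizontal axis. Points are arrays, lines are means of 2 arrays and the dotted line marks the offset of 16. Erbb4 is highest in BG +/-, and the other panels show single arrays or 1 group above an otherwise dim background.

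Among the ligands of ERBB4, Nrg3 alone passed between genotypes, in BG and on 1 of its 2 probe sets, a call lost in 12 of 16 alternatives. Nrg1 and Nrg2 did not pass in either region, although the BG difference of Nrg2, 0.59 on its brightest probe set, was of the same size. Nrg3 signals on probe set 1421017_at were 65.1 and 54.2 for BG +/-, 95.9 and 99.7 for BG -/-, 77.6 and 80.9 for Ctx +/-, and 64.7 and 65.7 for Ctx -/-. BG -/- was the highest group and Ctx -/- overlapped BG +/- at the low end. The BG rise was 0.59 ± 0.12 on the log2 scale (SE, adjusted p = 0.0327), a ratio of means of 1.64. In Ctx the values pointed the other way, at -0.23 ± 0.12 (adjusted p = 0.601). The BG effect minus the Ctx effect was 0.82 ± 0.17 (adjusted p = 0.0913), which did not pass.

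The second probe set of Nrg3, 1460289_at, read 38.3 and 35.4 for BG +/-, 36.7 and 46.2 for BG -/-, 31.8 and 25.7 for Ctx +/-, and 20.6 and 24.2 for Ctx -/-. Its BG groups overlapped, with a difference of 0.12 ± 0.14 (adjusted p = 0.645). The rise of Nrg3 in BG therefore rests on 1 of its 2 probe sets, and with their mean it was 0.35 (adjusted p = 0.0851). It was also lost without any 1 of the 4 BG arrays (adjusted p = 0.0776 to 0.153) or either Ctx -/- array (0.0693), without the filter (0.0642), with arrays centred on their median (0.0965), with quantile normalization (0.0509), with the replicate block (0.0598) and with the 4 BG arrays alone (0.0815).

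Nrg1, read by 1 probe set, was at 48.4 and 61.1 for BG +/-, 42.6 and 49.8 for BG -/-, 53.2 and 69.0 for Ctx +/-, and 108 and 96.2 for Ctx -/-. Ctx -/- stood above all other arrays. BG +/- overlapped with BG -/- and with Ctx +/-, which did not overlap with each other. In Ctx the difference was 0.62 ± 0.16 (SE, log2), the largest positive value among the members in that region, and did not pass (adjusted p = 0.306). In BG it was -0.18 ± 0.16 (adjusted p = 0.512), and the effects of the regions differed by -0.80 ± 0.23 (adjusted p = 0.159).

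Nrg2 signals on its brightest probe set, 1444491_at, were 55.9 and 50.8 for BG +/-, 83.2 and 93.5 for BG -/-, 36.3 and 31.1 for Ctx +/-, and 37.7 and 53.6 for Ctx -/-. BG -/- was the highest group. The difference between the BG genotypes was 0.59 ± 0.16 (SE, log2, adjusted p = 0.0683), a ratio of means of 1.65. This difference passed only with an offset of 64 (adjusted p = 0.0471). In Ctx it was 0.30 ± 0.16 (adjusted p = 0.605). The dimmer probe sets lay below the filter. Of these, 1457283_at was at 18.6 and 17.3 in Ctx +/- and at 2.14 to 7.61 in the other 6 arrays, whereas 1447654_at ranged from 4 to 28.3 with overlapping groups in BG. The 3 probe sets of Nrg2 thus ranked the groups differently.

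In the cortex, none of the 8 member probe sets passed between genotypes (limma), against 0.225% of all probe sets, 0.0476% higher and 0.178% lower. At an unadjusted p under 0.05 there were 4, against 9.67% of all probe sets, with Cxcr4 and Ackr3 lower and Nrg1 and the dimmer Cxcl12 probe set higher. All 8 had arrays that did not overlap between genotypes, as did 39.4% of all probe sets. In BG 5 of 8 did not overlap, against 60% of all. The median difference in Ctx was -0.22 over the members and -0.014 over all probe sets. For the difference of the genotype effects between regions none of the 8 passed, against 0.574% of all, 0.517% with a positive and 0.0571% with a negative difference, and 3 had an unadjusted p under 0.05 (Cxcr4, Nrg1 and Nrg3), against 17.7% of all.

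Between the regions, the members were spread in both directions. In +/- arrays 2 of 8 passed, Ackr3 higher in BG and Cxcl12 lower, against 23.8% of all probe sets, 11.1% higher and 12.8% lower. Arrays of the regions did not overlap for 7 of 8, against 62.5% of all. In -/- arrays 7 of 8 passed, 4 higher in BG and 3 lower, against 17.2% of all, 10.7% higher and 6.59% lower. None of the 8 overlapped, as was the case for 67.9% of all. Ackr3 was higher in BG by 1.99 ± 0.25 (SE, log2) in +/- (adjusted p = 0.00307) and by 2.43 ± 0.25 in -/- (adjusted p = 0.00189), ratios of means of 4 and 5.88. These calls of Ackr3 held in all 16 alternatives. Cxcr4 differed by -0.20 ± 0.14 between the regions in +/- (adjusted p = 0.33) and by -1.34 ± 0.14 in -/- (adjusted p = 0.00193), and the latter call also held in all 16.

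The neuregulins were divided between the regions in -/- arrays. Nrg1 was lower in BG by -0.92 ± 0.16 (SE, log2, adjusted p = 0.013), and Nrg2 was higher by 0.77 ± 0.16 (adjusted p = 0.0223). Nrg3 was higher by 0.49 ± 0.12 on its brighter probe set and by 0.58 ± 0.14 on the other (adjusted p = 0.04 and 0.0372). In +/- arrays the same comparisons gave -0.12 ± 0.16 for Nrg1, 0.48 ± 0.16 for Nrg2, and -0.34 ± 0.12 and 0.24 ± 0.14 for Nrg3, and none passed. These region calls depend on scaling: with each array centred on its median the median difference of all probe sets in -/- moved from 0.076 to -0.21, and Nrg2 at 0.49 and the Nrg3 probe sets at 0.20 and 0.29 no longer passed. The call of Nrg1 was lost without any 1 of the BG -/- or Ctx -/- arrays (adjusted p = 0.052 to 0.0805), and so were those of the Nrg3 probe sets (0.0795 to 0.173). The Nrg3 calls were lost in 8 of 16 alternatives for the brighter probe set and in 12 of 15 for the other, among them the fit without the filter (adjusted p = 0.0709 and 0.0631). That of Nrg2 was lost in 6 of 16 alternatives, among them the fits without either BG -/- array or without Ctx -/- replicate 2. Over these fits 3 or 4 of the 7 member calls were made. The region and genotype comparisons share arrays, so their values are not independent of each other.

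**Figure D4:**
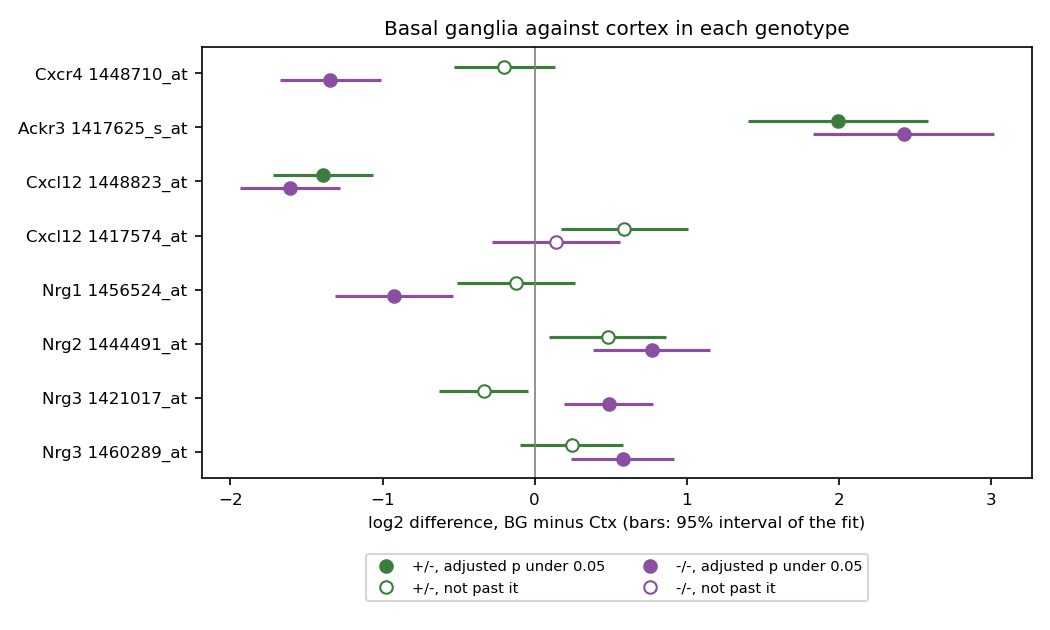
Region difference of each tested member probe set as log2 BG minus Ctx (horizontal axis), in +/- (green) and -/- (purple) arrays, with bars for the 95% interval of the fit. Filled points passed an adjusted p of 0.05. Ackr3 lies to the right at 1.99 and 2.43 and the bright Cxcl12 probe set to the left at -1.39 and -1.61, while Cxcr4 is near 0 in +/- and at -1.34 in -/-.

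Other genes of the same pathways were counted from lists, each gene by its brightest probe set with that symbol alone. Of 24 tested genes of CXCL12 signalling and turnover, 1 fell in BG and none rose, against 2.23% lower and 7.5% higher over all probe sets, with a list median of -0.078 against 0.010. It was Grk6, a kinase that phosphorylates activated G protein-coupled receptors. Grk6 signals were 629 and 643 for BG +/-, 409 and 421 for BG -/-, 674 and 595 for Ctx +/-, and 428 and 426 for Ctx -/-, with no overlap between genotypes. Its change was -0.60 ± 0.12 in BG (adjusted p = 0.0284) and -0.55 ± 0.12 in Ctx (adjusted p = 0.224). The BG call was lost in 9 of 16 alternatives, among them each fit that left out a BG array or a Ctx -/- array. None of the 24 passed in Ctx (limma), with 5 lower and 1 higher at an unadjusted p under 0.05, against 9.67% of all probe sets.

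Of 44 other chemokine and chemokine receptor genes only 14 were tested, since most were below the filter. None of the 14 passed in either region (limma), against 9.74% of all probe sets in BG and 0.225% in Ctx. At an unadjusted p under 0.05 there were 2 higher and 2 lower in each. The share of all probe sets at that cut was 28.2% in BG and 9.67% in Ctx. Those with the smallest p in BG were Ackr4, Cxcl1, Ackr2 and Ccrl2, with adjusted p of 0.0619, 0.0775, 0.0887 and 0.13. The scavenging receptor Ackr2 read 58.9 and 53.1 for BG +/-, 39.7 and 39.5 for BG -/-, 25.4 and 24.2 for Ctx +/-, and 40.1 and 42.3 for Ctx -/-, lower in -/- in BG and higher in Ctx by its values. Its difference between the regions was -0.86 ± 0.16 (adjusted p = 0.075).

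Of 28 tested genes of ERBB receptors, their other ligands, proteases and adaptors, 1 rose in BG and none fell, against the same shares, with a list median of 0.055. This was Wwp1, a ubiquitin ligase, with signals of 74.7 and 94.5 in BG +/- against 167 and 138 in BG -/-, a change of 0.75 ± 0.18 (adjusted p = 0.0452). That call was lost in 12 of 16 alternatives (adjusted p = 0.0104 to 0.204 over all 16), among them each fit that left out a BG array. None of the 28 passed in Ctx, nor did any at an unadjusted p under 0.05 (limma), against 9.67% of all probe sets at that cut.

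Of 37 tested genes of other cues for tangential migration, 4 rose in BG and none fell, with a list median of 0.13. Over all probe sets 7.5% rose, so the list's count is near the background. The comparison is rough, since the list takes 1 probe set per gene and the share counts every probe set kept. The 4 genes were Dcx, a microtubule protein of migrating neurons, at 0.93 ± 0.13, the netrin receptor Dcc at 0.90 ± 0.12, the ephrin receptor Epha3 at 0.75 ± 0.11 and the reelin receptor Lrp8 at 0.71 ± 0.14. Their adjusted p were 0.0115, 0.0115, 0.0144 and 0.0262, and each call was lost without any 1 of the BG arrays (adjusted p = 0.0504 to 0.141). With the mean of its probe sets Lrp8 was at 0.20 (adjusted p = 0.306). Of these, Dcc, Epha3 and Lrp8 were also lower in BG than in Ctx in both genotypes. Lrp8 signals were 293 and 265 for BG +/-, 492 and 440 for BG -/-, 857 and 866 for Ctx +/-, and 1002 and 856 for Ctx -/-. None of the 37 passed in Ctx (limma), with 4 higher and 3 lower at an unadjusted p under 0.05, against 9.67% of all probe sets. The smallest p there was that of Dcx, with signals of 3462 and 2985 in Ctx +/- and 5466 and 5411 in Ctx -/-, a difference of 0.76 ± 0.13 (adjusted p = 0.131).

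The genes whose pattern was most like that of a member were ranked by Pearson correlation over the 8 arrays among 12785 other genes (12786 for Erbb4). The arrays form 4 groups and share their scaling, so the values are a description. For Ackr3 these were Cbarp (r = 0.997), Trim32 (0.991) and Sema5b (0.989). Cbarp signals were 849 and 772 for BG +/-, 594 and 624 for BG -/-, 436 and 494 for Ctx +/-, and 297 and 335 for Ctx -/-, the same order of groups as Ackr3. For Cxcr4 they were Ruvbl2 (0.982), Tmub2 (0.981) and Fkbp4 (0.979), and for Cxcl12 Rtf1, Rnd2 and Pdzrn3 (0.992, 0.992 and 0.991). For Nrg1 they were Dhx57, Rrn3 and Gas7 (0.985, 0.967 and 0.967), for Nrg2 Mgat4c, Plch1 and Vcam1 (0.988, 0.971 and 0.969), and for Nrg3 Slc35f5, Pafah1b1 and Foxj1 (0.972, 0.968 and 0.967). For the dim Erbb4 they were Guk1, Hbb-bh1 and Pdap1 (0.979, 0.979 and 0.977).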

How the data were processed

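RNA of 8 samples was measured on arrays, grouped by their titles. What the authors deposited is an intensity, 1 per probe set and array for 45101 probe sets, and the software behind it is not given in the sources used here. Each array's trimmed mean was 150.0, so the arrays had been scaled before deposit. Some control signals still differed by group. AFFX-DapX-3_at read 1369 and 1518 for BG +/-, 833 and 941 for BG -/-, 493 and 767 for Ctx +/-, and 350 and 185 for Ctx -/-. An 18S RNA control read 450 to 5265 in BG and 97.0 to 190 in Ctx. The ratio of the 3′ to the 5′ actin control was 1.19 to 1.34. What the control differences stand for was not tested. No detection calls were used. Names come from the platform annotation, promoters from RefSeq (GRCm38.p6).

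After 64 control probe sets were left out, signals were analysed as log2(signal + 16). The lowest 30% by mean were dropped, and 4 group means were fitted in limma 3.58.1 (R 4.3.3) with lmFit and eBayes, with Benjamini-Hochberg adjustment over 31526 probe sets and a threshold of 0.05. Residual and prior degrees of freedom were 4 and 2.76. The fit was also run on simulated arrays with independent errors and few changed probe sets. Those are simpler than these data, so the run cannot show whether the calls here are right.

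Members and lists were chosen with earlier results of these data known. Named are all members, list genes past the threshold in a genotype comparison, otherwise up to 4 with the smallest p (of these only some are given), and the 3 genes most correlated with each member, clone names left out. Lhx6, Hbb-y, Th, Dbh, Pnmt, Chga, Chgb and Xist were named after their values were seen. The number of arrays limits the precision.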

Additional observations from a re-analysis of the deposited data

How the results depend on the processing

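With 2 arrays per group, the counts of calls moved more than the values. Over all probe sets, the BG genotype count of 3070 became 4969 with an offset of 64, 1761 without the filter, 2001 with arrays centred on their median, 2002 with the replicate block and 999 with the 4 arrays compared alone. The Ctx count of 71 became 41 with an offset of 1, 146 with 64, 36 with the replicate block and 26 with its 4 arrays alone. The count of 181 for the difference between regions became 3 with an offset of 1, 907 with 64, 10 without the filter, 53 after median centring and 4 with the replicate block. That for regions in +/-, 7518, became 3493 with its 4 arrays alone. Leaving out 1 array gave 112 to 3410, 19 to 39, 3 to 4, 3871 to 6923 and 1871 to 6623 in the same order, with regions in -/- last (5438 with all arrays). Median centring moved the share of higher calls from 46.4% to 31.6% for regions in +/-, from 61.8% to 26.5% in -/- (50.4% with quantile normalization) and from 90.1% to 67.9% for the difference.

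Of the member probe sets, 3 passed in BG, 1 without the filter and 1 with the replicate block, and 0 to 3 with an array left out. In Ctx and for the difference, where none passed, an offset of 64 gave 1 each (Ackr3 and Cxcr4). Between regions in +/- 2 became 4 without the filter, with Erbb4 and a dim Nrg2 probe set added, and 2 to 3 with an array left out. In -/- 7 became 4 after median centring, 4 after quantile normalization and 3 to 7 with an array left out.

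Direction reversed for values that had not passed and for none that had. With the mean of its probe sets, Cxcl12 went to 0.10 in BG, 0.073 in Ctx and 0.027 for the difference, and Nrg2 to -0.25 in Ctx. The dimmer Cxcl12 probe set went to -0.14 and -0.19 between regions in -/- after median centring and quantile normalization. With an array left out it ranged from -0.088 to 0.39 in BG, the dimmer Nrg3 probe set from -0.0027 to 0.23 in BG, and Nrg1 from -0.27 to 0.026 between regions in +/-.

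Samples of the same replicate number did not deviate together (correlations of -0.026 to 0.022), which shows no pairing by number but cannot exclude it. The labels do not say what the number stands for, and the block is given only as an alternative.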
